A study of Mus musculus with 6 samples.

Results

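The genes described here build and run cilia in mouse brain, and they were compared between sorted brain endothelial cells and the mixed cell suspension the cells were sorted from. Members were chosen with a gene symbol pattern, set with earlier results of these data known. It covers axonemal dynein chains, dynein assembly factors, radial spoke and central pair proteins, tektins, intraflagellar transport (IFT) proteins and their motors, BBSome subunits, transition zone proteins and a few genes of multiciliated cells. The pattern found 49 of the 10989 genes in the deposited table. By role, assigned from general knowledge, 20 members belong to the motile axoneme or to multiciliated cells, and 27 belong to transport, the BBSome or the transition zone. The other 2 (Spag7 and Spag9) match the pattern by name although their products are not known as axoneme parts. Genes that fit the symbol pattern but have no row, such as the dynein heavy chains, were not analysed here.

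All 6 libraries came from brain of mice with the genotype Tie2-cre+; NuTRAP+, and the titles of all 6 carry WT; their age was not stated. The NuTRAP reporter, active after Cre recombination, puts EGFP on ribosomes, and the Tie2 promoter drives Cre in endothelial cells and also in part of the blood lineage. The 3 Input libraries hold the whole suspension, endothelial cells included, and the 3 Positive libraries hold cells sorted as EGFP positive, CD31 positive and CD11b negative. Numbers 1222, 1223 and 1227 occur once in each fraction, and the series text calls the replicates biological. Total estimated counts ran from 4772866 to 52283556 per library, and both libraries numbered 1223 were shallow (4814966 in Input and 4772866 in Positive). Among markers of the gate, 9 of 9 endothelial genes were called higher in Positive, and their summed level went from 2931 to 4038 CPM (counts scaled to the library total) in Input to 21232 to 23008 CPM in Positive. Pericyte markers were also called higher (5 of 5), and markers of astrocytes (8 of 8), oligodendrocytes (7 of 7), microglia (6 of 6) and neurons (7 of 8) were called lower.

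A cilium is a microtubule core, the axoneme, that grows from a basal body. Motile cilia carry dynein arms, radial spokes and a central pair of microtubules that make them beat. In brain they stand in tufts on ependymal cells lining the ventricles. Primary cilia lack that beating machinery, occur singly on many cell types including neurons, astrocytes and endothelial cells, and serve as signalling antennae, for Hedgehog among others. Both kinds are built by IFT, in which kinesin-2 carries IFT-B and IFT-A trains outward and dynein-2 carries them back, while the BBSome moves membrane proteins and the transition zone gates the base.

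The motile genes were low in the sorted cells, and the shared transport genes kept most of their Input level. Of 49 members, 28 were called lower in Positive (edgeR adjusted p below 0.05), against 29.4% of all genes tested, and 1 member, Ift172, was called higher, against 26.1% of all genes. With the replicate number as a block, 28 members were called lower and 2 higher (Ift172 and Kif3b), against 31.7% and 30% of all genes. The motile members summed to 499, 495 and 454 CPM in Input (1222, 1223 and 1227) and to 88.4, 88.7 and 89.8 CPM in Positive, which is 18.4% of the Input mean. The transport, BBSome and transition zone members summed to 934, 900.0 and 870 CPM in Input and to 631, 642 and 636 CPM in Positive, 70.6% of the Input mean. In bulk libraries, fewer cells of a type and less RNA per cell cannot be told apart.

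Among the motile members 16 of 20 fell, none passed the test upward, and the median log2 fold change was -3.30. Among the 27 transport, BBSome and transition zone members 12 fell, 1 rose and 14 did not pass the test, with a median of -0.62, beside 0.03 over all genes. Levels in Positive were below 10% of Input for 9 motile members and below 20% for 14, whereas none of the 27 others was below 20% and 22 were above 50%. The deposited table had been filtered by its authors to genes with a raw value of at least 50 in all libraries of a fraction, and this bears on the counts: 18 of the 20 motile members met that minimum in Input only. Of those 18, 16 were called lower, beside 80.7% of all genes that met it in Input only. Among the 23 transport, BBSome and transition zone members that met the minimum in both fractions, 10 fell and 1 rose, beside 19.9% lower and 30.4% higher over all 8509 such genes. The median log2 fold change of these 23 was -0.62, and that of the 2 motile members that met it in both fractions was 0.04, beside 0.16 over all such genes. The medians of -3.30 and -0.62 over the classes are therefore descriptions of differently filtered members, and the difference between them was not tested.

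**Figure D1:**
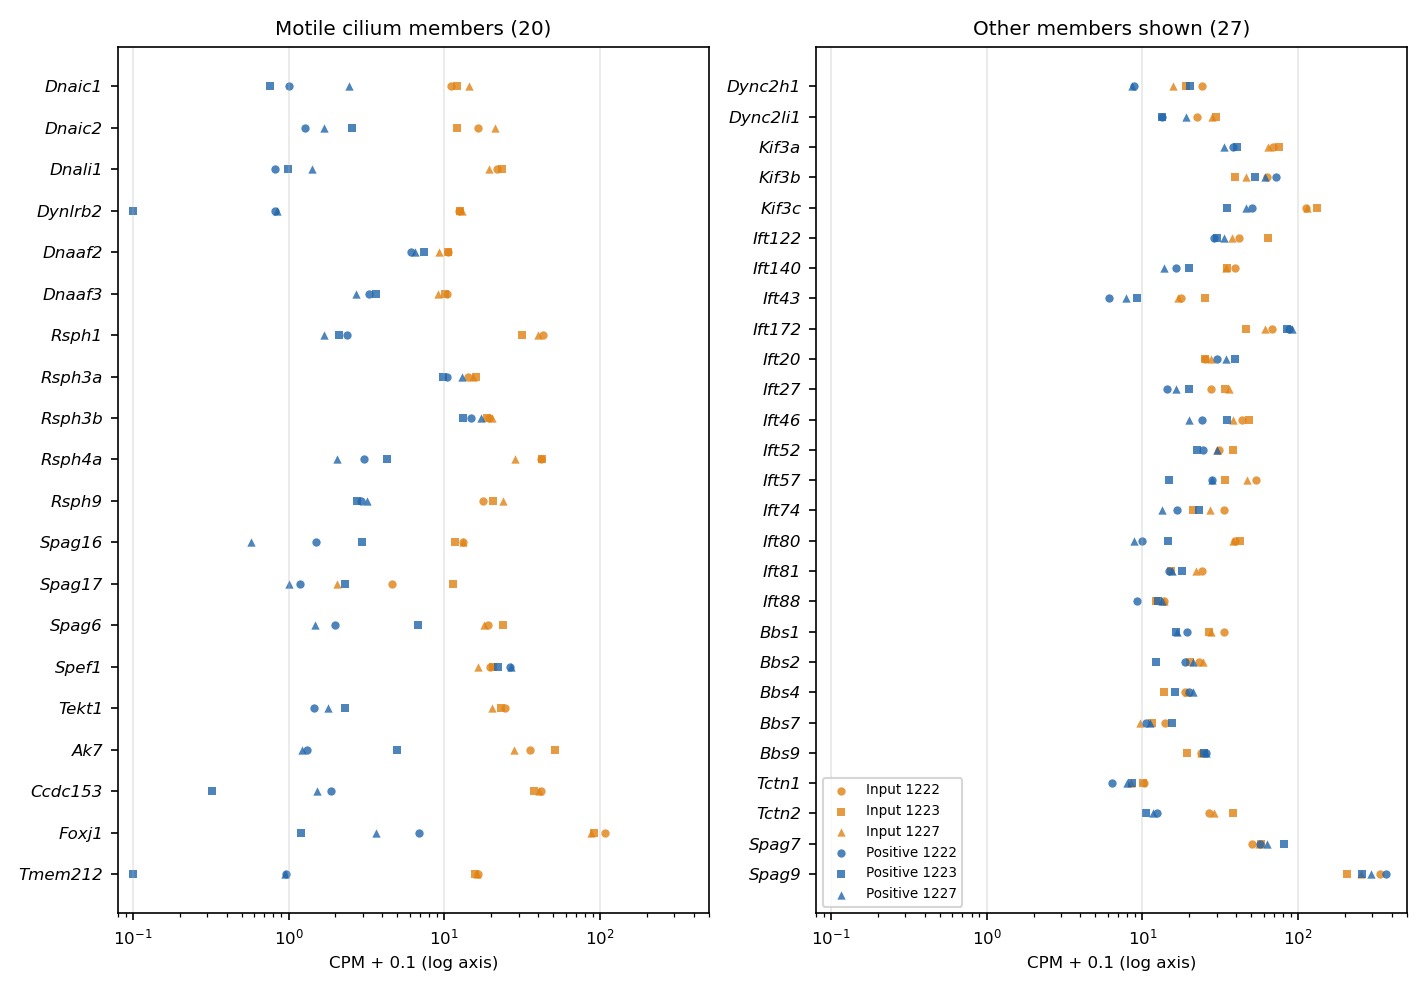
CPM plus 0.1 in each of the 6 libraries on a log axis, for the 20 motile members (left) and 27 of the other members (right); orange marks Input, blue marks Positive, and marker shape gives the replicate number. Most motile members lie far to the left in Positive, while Rsph3a, Rsph3b, Dnaaf2 and Spef1 lie nearer to their Input level, as most of the other members do.

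Promoter sequence, which the symbol rule did not use, was searched for the motifs of cilium gene regulators. RFX transcription factors bind the X-box, a pair of inverted arms, and FOXJ1 is a forkhead factor, and both are known regulators of cilium genes. RefSeq promoter windows on GRCm38.p6, from 250 bases before to 50 bases from the start site on, were found for 40 of the 49 members (42 windows of 300 bases). The single X-box arm GTTGCC, searched on both strands, was in 20 of the 42 member windows (47.6%), against 12.8% of the windows of genes tested and 12.5% of all windows in the table. The longer X-box-like palindrome (GTNNCC, then 3 bases of any kind, then GNAAC), also searched on both strands, was in 9 of 42 (21.4%), against 2.62% and 2.17%. In 7 of these 9 sites the arm lies inside the palindrome, so these matches are not separate. By class, the arm was in 44.4% of motile windows and in 57.1% of the transport, BBSome and transition zone windows, and the palindrome was in 16.7% and 28.6%. The forkhead core GTAAACA was in 1 member window (Ak7, 2.38%), against 2.46% of tested genes and 3.65% of all windows. A match is a run of letters, not a measured binding site.

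**Figure D2:**
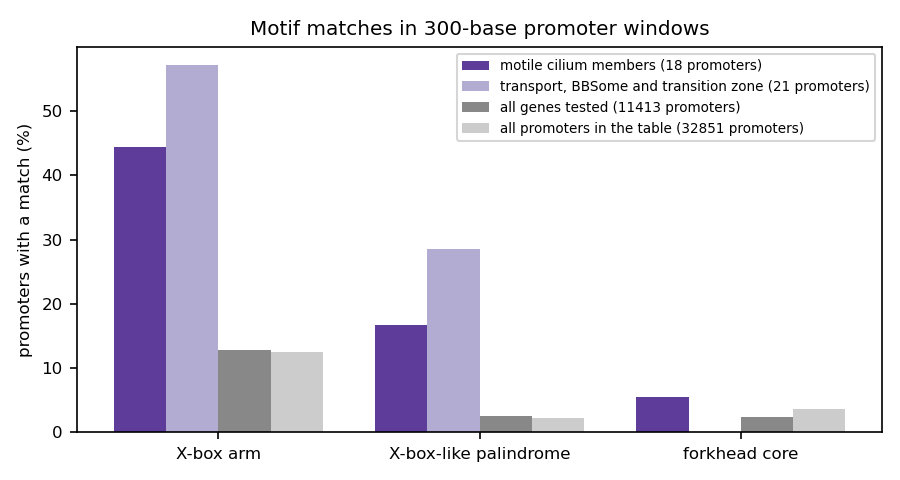
Percent of 300-base promoter windows with at least 1 match, for the X-box arm, the X-box-like palindrome and the forkhead core, in motile members (18 windows), transport, BBSome and transition zone members (21 windows), genes tested and all windows of the RefSeq table. Both member classes stand above the tested genes for the X-box arm and the palindrome.

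The 9 palindromes are shown because they belong to genes with unlike behaviour in the sort: Spag16 and Spag6 were among the motile genes that fell, Bbs1, Ift57 and Tctn2 fell less, and Bbs4, Bbs7, Tctn1 and Dnaaf2 did not pass the test. Each line runs 5′ to 3′ on the gene's strand (GRCm38.p6), with the 14 bases of the palindrome in capitals; a match to the pattern may be on the other strand. Positions count the start site as 0.
Spag16, chr1:69826859-69826888, plus strand, site from -103: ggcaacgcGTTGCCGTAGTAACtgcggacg
Spag6, chr16:16829314-16829337, minus strand, site from 34: tgctgtcgGTTGCCCTGGAGACgc
Dnaaf2, chr12:69198425-69198454, minus strand, site from -17: tcccaggcGTTACTATGGCAACaaagcacg
Ift57, chr16:49699199-49699228, plus strand, site from -87: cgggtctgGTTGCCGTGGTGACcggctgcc
Bbs1, chr19:4906605-4906634, minus strand, site from 1: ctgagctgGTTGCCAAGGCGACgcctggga
Bbs4, chr9:59353464-59353493, minus strand, site from 23: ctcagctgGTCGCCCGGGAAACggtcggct
Bbs7, chr3:36613489-36613518, minus strand, site from -121: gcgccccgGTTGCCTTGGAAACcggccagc
Tctn1, chr5:122264411-122264432, minus strand, site from 36: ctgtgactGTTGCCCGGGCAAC
Tctn2, chr5:124598679-124598708, plus strand, site from -62: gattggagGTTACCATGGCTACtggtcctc

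The whole windows of Ccdc153, the member with the lowest log2 fold change, and of Ift172, the only member called higher, are shown for comparison. Each holds the arm (capitals) without a full match to the palindrome, at -152 in Ccdc153 and at the start site (0) in Ift172. The search allowed no mismatch and no other spacing. In Ccdc153 the bases after the arm miss the palindrome pattern at a single fixed base.
Ccdc153, chr9:44240427-44240726, plus strand: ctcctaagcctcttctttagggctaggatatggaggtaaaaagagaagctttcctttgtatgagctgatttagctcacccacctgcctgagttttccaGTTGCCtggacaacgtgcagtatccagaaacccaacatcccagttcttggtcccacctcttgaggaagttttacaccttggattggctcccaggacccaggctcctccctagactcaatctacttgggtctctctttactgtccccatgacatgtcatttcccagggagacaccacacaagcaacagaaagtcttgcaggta
Ift172, chr5:31291065-31291364, minus strand: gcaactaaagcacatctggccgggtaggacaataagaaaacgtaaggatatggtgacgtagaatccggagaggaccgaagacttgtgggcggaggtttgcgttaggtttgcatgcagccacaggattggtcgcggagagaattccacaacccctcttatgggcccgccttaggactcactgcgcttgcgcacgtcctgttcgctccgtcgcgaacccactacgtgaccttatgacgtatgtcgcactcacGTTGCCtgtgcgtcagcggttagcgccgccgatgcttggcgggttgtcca

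Foxj1, the transcription factor that switches on the motile cilium programme, lies on chr11:116330704-116335354 (mm10, minus strand, as deposited). It measured 107.6, 91.7 and 87.7 CPM in Input (1222, 1223, 1227) and 6.83, 1.11 and 3.55 CPM in Positive. Every Positive library was far below every Input library, and the log2 fold change was -4.46 ± 0.42 (SE, adjusted p = 3.37e-05). Ccdc153, a gene of motile ciliated cells, measured 41.9, 37.6 and 40.7 CPM in Input and 1.76, 0.222 and 1.43 CPM in Positive. Its log2 fold change of -4.87 ± 0.38 was the lowest of the 49 members (adjusted p = 1.23e-05). Ak7, an adenylate kinase of motile cilia, measured 35.4, 51.1 and 27.9 CPM in Input and 1.22, 4.88 and 1.11 CPM in Positive (log2 -4.33 ± 0.55, adjusted p = 0.000193). Positive 1223 was the highest sorted library for Ak7 and the lowest for Foxj1. Tmem212 measured 16.4, 15.6 and 16.2 CPM in Input and 0.859, 0 and 0.847 CPM in Positive (log2 -4.49 ± 0.51, adjusted p = 0.0001). The 0 in Positive 1223 allows up to 0.665 CPM, the level of 3 counts in that library. Foxj1, Ccdc153, Ak7 and Tmem212 all met the deposited minimum in Input only, where 80.7% of all genes were called lower.

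The dynein arms are the motors of the beating axoneme, and all 4 members grouped here with them fell. All 4 met the deposited minimum in Input only, where 80.7% of all genes were called lower. Dnali1, an inner arm light intermediate chain, measured 21.6, 23.4 and 19.2 CPM in Input and 0.724, 0.887 and 1.32 CPM in Positive (log2 -4.42 ± 0.33, adjusted p = 1.08e-05). Dnaic2, an outer arm intermediate chain, measured 16.4, 11.99 and 21.1 CPM in Input and 1.18, 2.44 and 1.59 CPM in Positive (log2 -3.38 ± 0.39, adjusted p = 0.000109). Its partner chain Dnaic1 measured 10.96, 11.99 and 14.2 CPM in Input and 0.904, 0.665 and 2.33 CPM in Positive (log2 -3.14 ± 0.48, adjusted p = 0.000572). In all 3 genes the fractions were far apart, with the highest sorted library below 3 CPM. Dynlrb2, a dynein light chain counted here with the arms and not with dynein-2, measured 12.4 to 12.8 CPM in Input and at most 0.741 CPM in Positive (log2 -4.35 ± 0.53). Its deposited estimate of 0.5 counts in Positive 1223 was rounded to 0. The assembly factors, which put dynein arms together in the cytoplasm, held more of their Input level. Dnaaf3 measured 10.2, 9.99 and 9.07 CPM in Input and 3.17, 3.55 and 2.59 CPM in Positive, and it fell by 1.67 on the log2 scale (SE 0.32, adjusted p = 0.0023). It also met the deposited minimum in Input only.

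Dnaaf2 measured 10.4, 10.4 and 9.16 CPM in Input and 5.97, 7.32 and 6.41 CPM in Positive, so the fractions did not overlap, and the log2 fold change of -0.61 ± 0.27 did not pass (adjusted p = 0.0854). It passed without both libraries numbered 1223 (-0.67, adjusted p = 0.0469), with DESeq2 (-0.63, adjusted p = 0.0463), with limma (-0.53, adjusted p = 0.0285) and with library totals alone (-0.77, adjusted p = 0.0416). On GENCODE exons of the same build, 32.7% of Dnaaf2's exon bases overlap 9330151L19Rik on the opposite strand and 22.3% overlap Gm49383 on the same strand. Strand use in the authors' counting was not given in the sources used here, so reads of these genes cannot be told apart.

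Radial spokes and the central pair transmit and time the beat, and 6 of these 9 members fell. Of the 9, 7 met the deposited minimum in Input only, where 80.7% of all genes were called lower. Rsph1, a spoke head protein, measured 42.7, 31.6 and 39.6 CPM in Input and 2.26, 1.996 and 1.59 CPM in Positive (log2 -4.29 ± 0.25, adjusted p = 3.88e-06). Rsph4a, also of the spoke head, measured 41.8, 42.2 and 28.3 CPM in Input and 2.94, 4.21 and 1.96 CPM in Positive (log2 -3.71 ± 0.32, adjusted p = 2.18e-05). In both genes the highest sorted library was far below the lowest Input library. Rsph9 fell by 2.84 (SE 0.26), and the central pair genes Spag16 and Spag6 fell, with log2 fold changes of -3.23 ± 0.56 and -2.83 ± 0.55. Spag6 in Positive was uneven, with 1.90, 6.65 and 1.38 CPM, the library 1223 again highest. Spag17, a large central pair protein, overlapped between fractions at 4.502, 11.2 and 1.96 CPM in Input and 1.09, 2.22 and 0.900 CPM in Positive. Its fall of -2.13 ± 0.76 (adjusted p = 0.0411) was no longer called without Input 1222 (-2.27), Input 1223 (-1.35), Positive 1222 (-2.001) or Positive 1227 (-1.88). Tekt1, a tektin filament protein inside the axonemal microtubules, measured 24.5, 23.0 and 20.2 CPM in Input and 1.36, 2.22 and 1.69 CPM in Positive (log2 -3.76 ± 0.28, adjusted p = 1.15e-05). It also met the deposited minimum in Input only.

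The remaining 3 spoke and central pair members did not pass the test. Spef1, a microtubule-binding protein of the central pair that is also known from epithelial cells outside cilia, measured 19.5, 20.4 and 16.3 CPM in Input and 26.2, 21.95 and 26.9 CPM in Positive. Every Positive library was above every Input library, and the log2 fold change was 0.43 ± 0.18 (adjusted p = 0.0765); without both 1223 libraries it was 0.57 and passed (adjusted p = 0.0387), as it did with limma (0.49, adjusted p = 0.0413). Spef1 exons overlap Gm14232 (9.32% of its exon bases) and Cdc25b (3.35%) on the opposite strand and Cenpb (0.728%) on the same strand, and the part of these genes in its counts was not tested. Rsph3a and Rsph3b are near-identical copies of a spoke stalk gene. They measured 14.2 to 15.98 and 18.6 to 20.1 CPM in Input and 9.76 to 12.8 and 13.1 to 17.1 CPM in Positive, with log2 fold changes of -0.45 ± 0.22 (adjusted p = 0.117) and -0.36 ± 0.19 (adjusted p = 0.15). Of the 31-base words in their transcripts, 59.4% of Rsph3a's and 68.5% of Rsph3b's occur in transcripts of another gene, so how the authors' counting split reads between the copies makes both values uncertain.

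**Figure D3:**
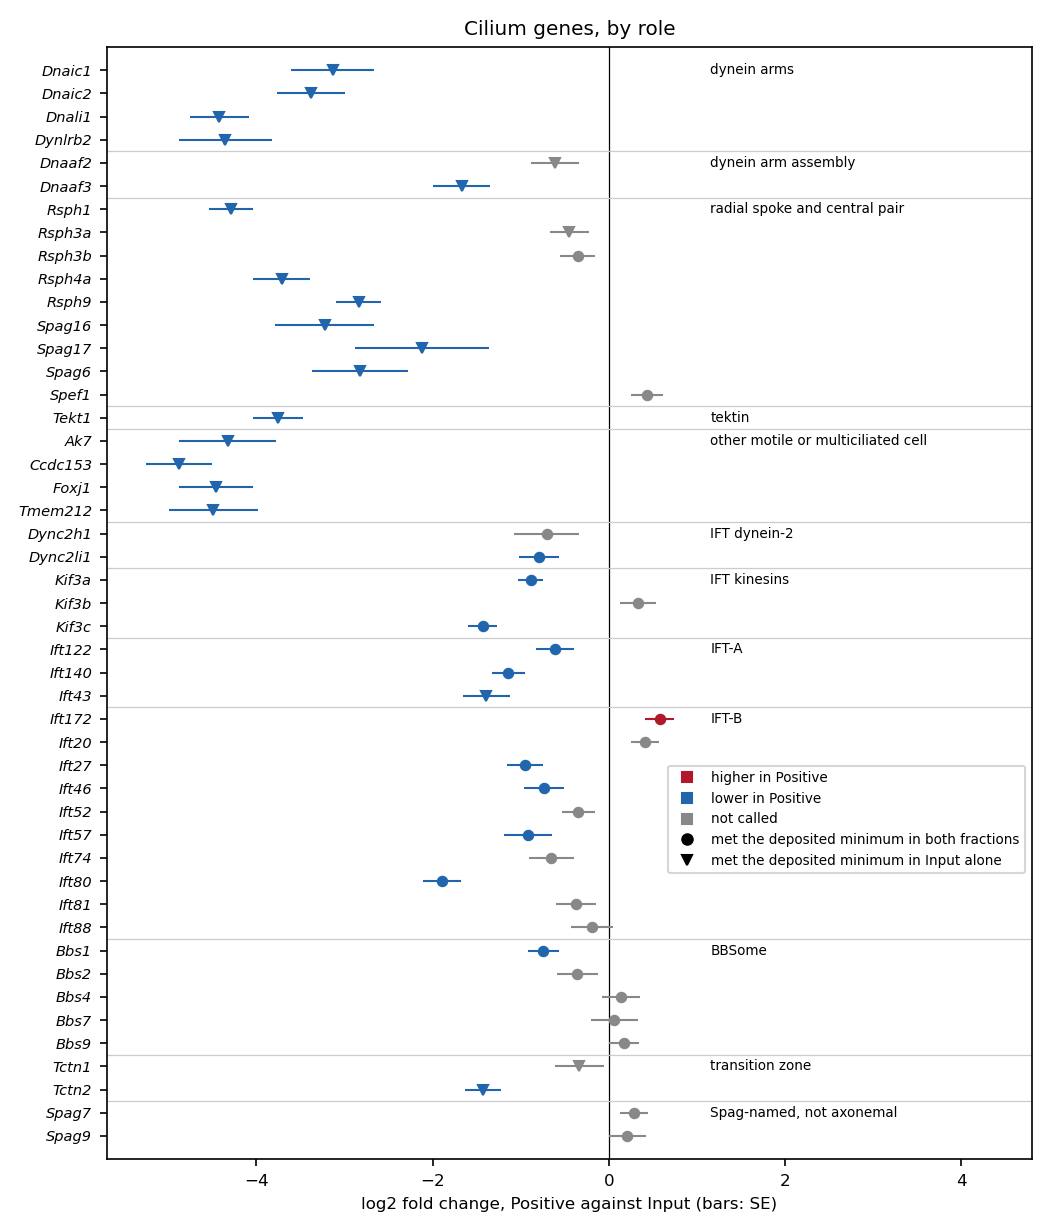
Log2 fold change of Positive against Input with its SE for 47 of the 49 members, ordered by role; red marks a member called higher, blue lower and grey not called, and marker shape shows in which fraction the member met the deposited minimum. Motile members called lower run from -4.87 to -1.67, and the lowest of the others is Ift80 at -1.89.

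Dynein-2 returns IFT trains to the cell body. Its light intermediate chain Dync2li1 measured 22.2, 29.6 and 27.9 CPM in Input and 13.2, 13.3 and 19.0 CPM in Positive, without overlap (log2 -0.79 ± 0.22, adjusted p = 0.0152). The call was lost without Input 1227 (-0.76) or Positive 1222 (-0.68). The heavy chain Dync2h1 measured 24.0, 19.0 and 15.6 CPM in Input and 8.73, 20.2 and 8.42 CPM in Positive. Positive 1223 alone lay within the Input range; the log2 fold change was -0.71 ± 0.37 (adjusted p = 0.136), and without that library it was -1.19 (adjusted p = 0.00664).

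The kinesin-2 motor subunits differed among themselves. Kif3a and Kif3b form the motor that carries IFT trains outward, and Kif3c is a further kinesin-2 subunit best known from neurons. Kif3a measured 68.6, 75.1 and 63.8 CPM in Input and 38.2, 40.6 and 33.4 CPM in Positive, and it fell by 0.89 on the log2 scale (SE 0.14, adjusted p = 0.0008). Kif3c measured 111.6, 132.1 and 113.8 CPM in Input and 50.1, 34.8 and 46.2 CPM in Positive (log2 -1.43 ± 0.17, adjusted p = 0.00012). Neither gene's fractions overlapped. Of Kif3c's exon bases, 37.8% overlap 1110002L01Rik on the opposite strand, a gene with 5.31 CPM in Input and 4.30 CPM in Positive. Kif3b measured 62.6, 39.0 and 46.1 CPM in Input and 71.6, 52.8 and 61.2 CPM in Positive, and each sorted library was above the Input library of its own number. Its log2 fold change of 0.33 ± 0.20 did not pass (adjusted p = 0.202); with the replicate number as a block it was 0.34 and passed (adjusted p = 0.0374), and without Input 1222 it was 0.54 (adjusted p = 0.0434). Per kilobase of exon, Kif3a, Kif3c and Kif3b stood at 21.4 ± 1.76, 17.2 ± 1.62 and 8.73 ± 2.15 CPM in Input (SD, n = 3). In Positive they stood at 11.6 ± 1.14, 6.31 ± 1.147 and 10.98 ± 1.68 CPM per kilobase, so Kif3a and Kif3b lay within their spread of each other there.

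**Figure D4:**
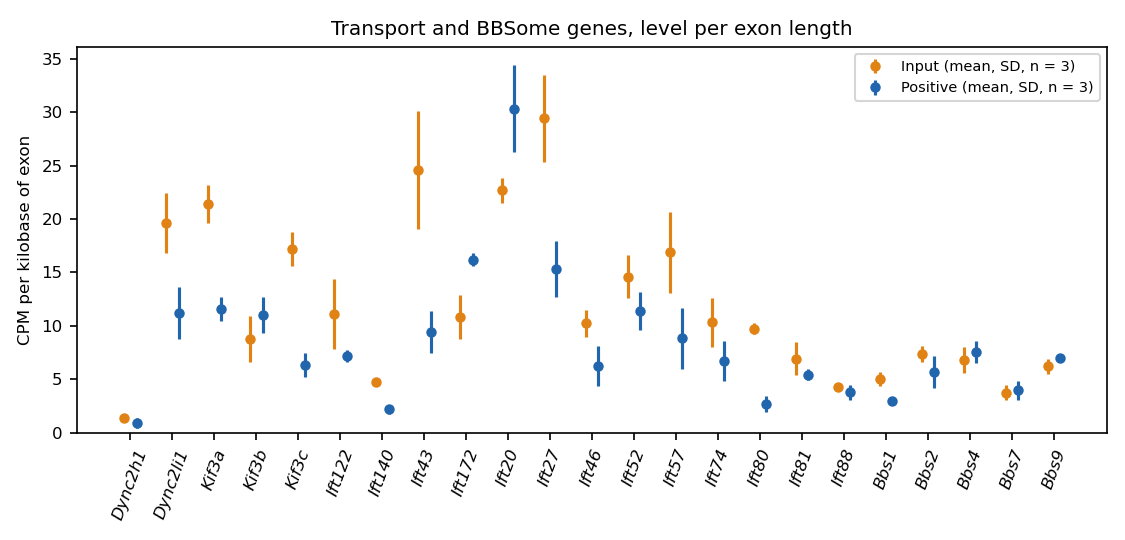
CPM per kilobase of exon (mean ± SD, n = 3) of the IFT motors, IFT-A, IFT-B and BBSome members in Input (orange) and Positive (blue). Kif3b, Ift172, Ift20, Bbs4, Bbs7 and Bbs9 have the higher mean in Positive; only Ift172 of these was called.

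IFT-A, the adaptor complex for inward transport and membrane cargo entry, fell in all 3 measured subunits, and no fractions overlapped. Over all genes 29.4% were called lower, and 32.6% had every Positive library below every Input library. Ift122 measured 41.4, 63.9 and 37.7 CPM in Input and 28.9, 29.9 and 33.4 CPM in Positive (log2 -0.62 ± 0.22, adjusted p = 0.0383). Its call was lost without Input 1223 (-0.36), Positive 1222 (-0.57), Positive 1223 (-0.60) or Positive 1227 (-0.68), and with limma (-0.52, adjusted p = 0.067). Ift140 measured 39.4, 34.8 and 34.5 CPM in Input and 16.4, 19.96 and 13.6 CPM in Positive (log2 -1.14 ± 0.19, adjusted p = 0.00101). Ift43 measured 17.6, 25.0 and 16.9 CPM in Input and 5.97, 9.09 and 7.78 CPM in Positive (log2 -1.39 ± 0.27, adjusted p = 0.00238). The calls of Ift140 and Ift43 held with each library left out, though Ift43 met the deposited minimum in Input only.

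IFT-B forms the outward train, and its 10 measured subunits moved unevenly: 1 rose, 4 fell and 5 did not pass. All 10 met the deposited minimum in both fractions, where 30.4% of all genes were called higher and 19.9% lower. Ift172, a large peripheral IFT-B subunit, measured 67.9, 46.3 and 61.5 CPM in Input and 86.8, 84.7 and 91.4 CPM in Positive. All sorted libraries were above all Input libraries, and the log2 fold change was 0.57 ± 0.16 (adjusted p = 0.0154). The call was lost without Positive 1227 (0.54, adjusted p = 0.0511), without both 1227 libraries (0.58, adjusted p = 0.11) and when only the library totals were used for scaling (0.42, adjusted p = 0.0702). Ift57 measured 53.7, 34.0 and 47.1 CPM in Input and 27.8, 14.6 and 28.0 CPM in Positive (log2 -0.92 ± 0.27, adjusted p = 0.0187), a call lost without Input 1222 (-0.78) or Input 1227 (-0.89) and with limma (-0.91, adjusted p = 0.0539). Ift46 measured 43.3, 48.5 and 37.8 CPM in Input and 23.9, 35.0 and 19.96 CPM in Positive (log2 -0.73 ± 0.23, adjusted p = 0.0225). That call was lost without Input 1222 (-0.73), Input 1223 (-0.65), Positive 1222 (-0.68) or Positive 1227 (-0.57).

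The other falls in IFT-B held with each single library left out. Ift80, named here for its size after its values were seen, measured 39.4, 42.4 and 37.9 CPM in Input and 9.81, 14.4 and 8.74 CPM in Positive. Its log2 fold change of -1.89 ± 0.22 (adjusted p = 0.000118) was the lowest among the transport, BBSome and transition zone members. Ift27, a small GTPase of the train, fell by 0.95 (SE 0.20, adjusted p = 0.0037) and was not called without both 1227 libraries (-0.85, adjusted p = 0.0721). Ift20, the subunit also found at the Golgi, measured 25.3, 25.0 and 27.4 CPM in Input and 30.2, 39.5 and 34.2 CPM in Positive, without overlap, and did not pass (log2 0.41 ± 0.16, adjusted p = 0.0609), although limma called it higher. Ift74 and Ift81 form the core pair that binds tubulin. Ift74 had a log2 fold change of -0.66 ± 0.26 (adjusted p = 0.0583) and passed without Input 1223 (-0.80) or Positive 1223 (-0.87), with DESeq2 or RLE factors (both -0.66) and with library totals alone (-0.82). Ift81 had -0.38 ± 0.23 (adjusted p = 0.188) and passed without Input 1223 (-0.54). Ift52 and Ift88, of the IFT-B core, had -0.35 ± 0.18 and -0.19 ± 0.24 and overlapped between fractions.

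The BBSome coats membrane cargo for export from the cilium, and 4 of its 5 measured subunits did not pass the test. All 5 met the deposited minimum in both fractions, where 19.9% of all genes were called lower. The 1 fall among 5 is near that share. Bbs1 measured 33.4, 26.6 and 27.6 CPM in Input and 19.2, 16.4 and 16.6 CPM in Positive and fell by 0.74 (SE 0.18, adjusted p = 0.00744). It was not called without both 1222 (-0.72) or both 1227 libraries (-0.75). Bbs9 measured 23.6, 19.2 and 23.8 CPM in Input and 25.4, 24.6 and 25.4 CPM in Positive, all above Input by a small margin (log2 0.17 ± 0.17, adjusted p = 0.417). Bbs2 measured 22.8, 19.98 and 24.6 CPM in Input and 18.8, 12.2 and 21.0 CPM in Positive, overlapping (log2 -0.36 ± 0.23, adjusted p = 0.223). Bbs4 and Bbs7 had log2 fold changes of 0.14 ± 0.21 and 0.06 ± 0.27, and the sign of both turned under scaling by library totals alone.

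In the transition zone group 1 of 4 members fell and the other 3 did not pass the test. That count is near the 29.4% called lower over all genes. Tctn2, a tectonic of the transition zone, measured 26.7, 38.0 and 28.8 CPM in Input and 12.3, 10.4 and 11.5 CPM in Positive (log2 -1.43 ± 0.20, adjusted p = 0.000419), without overlap. It met the deposited minimum in Input only, where 80.7% of all genes were called lower. Tctn1 overlapped (log2 -0.34 ± 0.28, adjusted p = 0.336), and 27.5% of its exon bases lie opposite Hvcn1, whose own log2 fold change was -2.31.

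Across all members, each of the 3 Positive libraries was below all Input libraries in 30 of 49 (32.6% of all genes) and above in 4 of 49 (31.8% of all genes). Those 4 were Ift172, Ift20, Bbs9 and Spef1, and only Ift172 of them passed the test. Spag9, a JNK pathway scaffold, and Spag7, the members without an axonemal role, had log2 fold changes of 0.21 ± 0.21 and 0.28 ± 0.16 and did not pass. Spag9 ranged from 205 to 337 CPM in Input and from 256 to 367 CPM in Positive, and Spag7 from 50.1 to 57.9 and from 56.4 to 80.7. In the Gene Ontology annotation of the deposited table, 26 of the 49 members (53.1%) carry the term cilium, against 0.874% of all genes. The 70 genes with that term outside the members had 9 called higher and 35 lower, with a median log2 fold change of -0.76. Over all genes, 26.1% were called higher and 29.4% lower. Of the 70, 26 met the deposited minimum in Input only. The 40 that met it in both fractions had 9 higher and 14 lower and a median of -0.10, beside 30.4% higher and 19.9% lower over all such genes.

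Most markers of the other cell types were lower in Positive, as most motile genes were, while endothelial and pericyte markers were higher. Of 7 ependymal marker genes that are not members, 6 were called lower and Tm4sf1, which endothelial cells also express, was called higher. Of the 7, 2 (Enkur and 1700009P17Rik) are themselves motile cilium genes. The 7 markers summed to 266 to 352 CPM in Input and 546 to 699 CPM in Positive, 212% of Input, and most of the Positive sum was Tm4sf1 (530 to 683 CPM). Without Tm4sf1, left out after its values were seen, the ependymal markers summed to 145.8 to 153.7 CPM in Input. In Positive they summed to 16.4 to 19.3 CPM, 11.7% of Input. The motile members stood at 18.4%, and most of their Positive sum came from members not called lower (Spef1, Rsph3b, Rsph3a and Dnaaf2). All 11 choroid plexus markers fell, to 13.9% of Input in sum (3070 to 6552 CPM against 378 to 994 CPM). Summed markers of astrocytes, neurons, oligodendrocytes, microglia and erythroid cells stood at 10.3%, 11.6%, 4.3%, 17.6% and 30.5% of Input. No gene of these lists was at 0 in a Positive library. How far other cell types entered any member's Positive level was not tested.

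**Figure D5:**
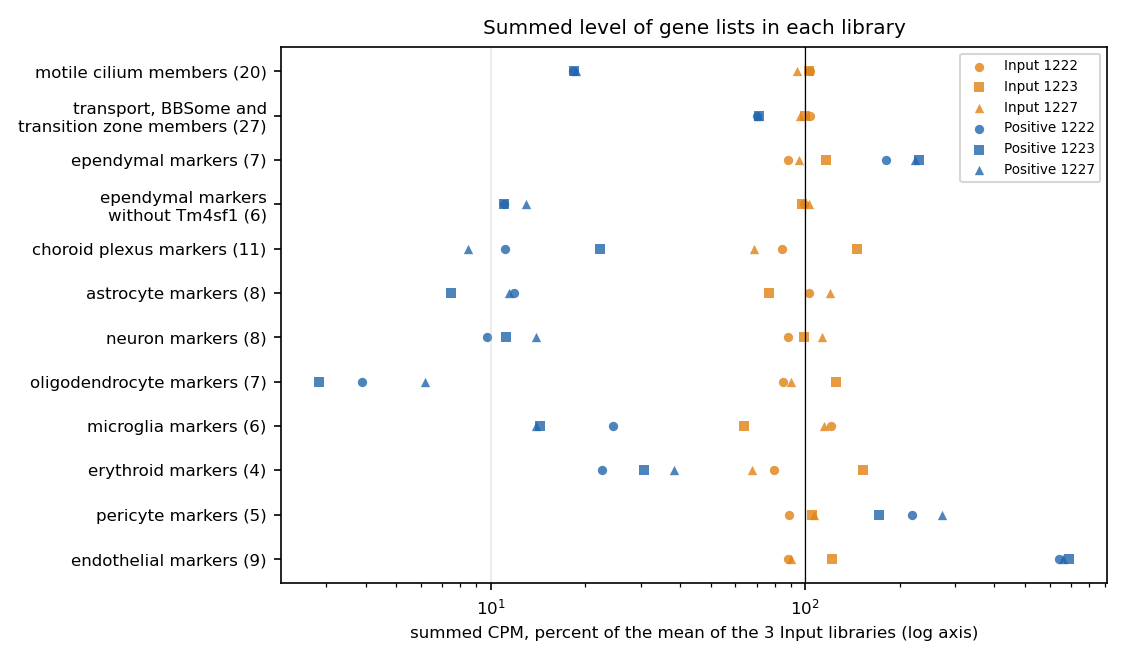
Summed CPM of each gene list in every library, as a percent of the mean of the 3 Input libraries, on a log axis; orange marks Input, blue marks Positive, and marker shape gives the replicate number. The motile members lie at about the level of the microglial list in Positive, the transport, BBSome and transition zone members lie near 71%, and the endothelial list lies above all others. Most of the motile sum in Positive came from Spef1, Rsph3b, Rsph3a and Dnaaf2, which were not called lower.

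Cilium genes outside the members were read from 6 lists, of which 127 of 195 names matched the table and 68 were not analysed here; 3 of the matched names are further names of genes already listed, which leaves 124 genes. The shares over all genes beside these counts are 26.1% higher and 29.4% lower, and 30.4% and 19.9% among genes that met the deposited minimum in both fractions. Among 35 other motile cilium genes 31 fell and none was called higher, with a median log2 fold change of -2.92; 30 of them met the deposited minimum in Input only, where 80.7% of all genes were called lower. Of the 5 that met it in both fractions 2 fell, with a median of -0.52. The most abundant were Tppp3, a tubulin-binding protein of ciliated cells (98.2, 131.5 and 118.2 CPM in Input, 20.6, 18.4 and 19.3 CPM in Positive, log2 -2.57 ± 0.16), and Ccdc135, a dynein regulatory complex subunit (-3.99 ± 0.31). In a list of 8 ciliogenesis regulators and further RFX and E2F family members, 3 rose and 2 fell. Whether each of them acts on cilia here was not tested. Rfx4 measured 41.4, 27.0 and 45.6 CPM in Input and 1.90, 2.44 and 3.28 CPM in Positive (log2 -3.91 ± 0.31). Trp73, a p53 relative needed for multiciliated cells, fell by 3.04 (SE 0.60). Rfx4 and Trp73 met the deposited minimum in Input only, where 80.7% of all genes were called lower. Rfx1, Rfx5 and E2f4 rose by 0.57 ± 0.18, 0.54 ± 0.16 and 0.73 ± 0.18, and Rfx7 had 0.05 ± 0.20 (adjusted p = 0.836). The rises were not stable: with 1 library left out, the call of Rfx1 was lost without Input 1227 (0.55), Positive 1222 (0.54) or Positive 1227 (0.57), and that of Rfx5 without Input 1227 (0.54), Positive 1223 (0.48) or Positive 1227 (0.54). Both were lost with library totals alone (0.41 and 0.38), and E2f4 was not called without both 1227 libraries (0.79, adjusted p = 0.0621).

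Of 23 further transition zone and basal body genes 6 fell and none was called higher (median -0.24). The 6 falls are near the 29.4% called lower over all genes. Of the 14 that met the deposited minimum in both fractions 2 fell, with a median of 0.0. With limma 2 of the 23 were called higher, and the 6 falls became 10 with library totals alone and 3 without both 1227 libraries. Ccp110, a cap of the centriole, measured 148.4, 140.0 and 139.1 CPM in Input and 40.6, 28.6 and 32.6 CPM in Positive (log2 -2.06 ± 0.16), while Pcm1, of centriolar satellites, had 0.09 ± 0.19 (adjusted p = 0.699). Of 21 other IFT and ciliary trafficking genes 2 rose and 9 fell (median -0.41, and -0.22 for the 13 that met the deposited minimum in both fractions). Kifap3, the accessory subunit of kinesin-2, fell by 0.69 (SE 0.14), beside a log2 fold change of -0.89 for Kif3a. Arl13b, a GTPase of the ciliary membrane, rose by 0.57 ± 0.17, a call lost without Input 1227 (0.53) or Positive 1227 (0.52) and with library totals alone (0.41), and Unc119b, which carries lipidated cargo to cilia, rose from 74.3 to 85.5 CPM in Input to 187 to 189 CPM in Positive (log2 1.26 ± 0.12).

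Of 15 Hedgehog and ciliary signalling genes 2 rose and 6 fell (median -0.66). Of the 9 that met the deposited minimum in both fractions 2 rose and 2 fell, with a median of -0.19. Over all such genes 30.4% were called higher and 19.9% lower. Pkd2, the polycystin channel, rose by 0.72 ± 0.21, and Sufu, a brake on GLI factors, by 0.60 ± 0.18. The call of Pkd2 was lost without Input 1227 (0.74) or Positive 1222 (0.55), and that of Sufu without Input 1222 (0.57), Input 1227 (0.53) or Positive 1222 (0.57). Both were lost with library totals alone (0.56 and 0.45), and with the replicate block 4 of the 15 were called higher, Pkd1 among them (0.40, adjusted p = 0.017). Pkd1 and the signal transducer Smo had 0.37 ± 0.28 (adjusted p = 0.303, and called without Input 1222 at 0.71) and -0.04 ± 0.27 (adjusted p = 0.919). The receptor Ptch1 and the effectors Gli2 and Gli3, named after their values were seen, fell, with log2 fold changes of -1.74 ± 0.28, -3.204 ± 0.43 and -2.88 ± 0.61. Gli2 and Gli3 met the deposited minimum in Input only, where 80.7% of all genes were called lower. For motors outside the cilium, 22 genes of cytoplasmic dynein 1, dynactin and kinesin-1, 2 rose, 3 fell and 17 did not pass (median 0.04). Dync1h1, the dynein 1 heavy chain, measured 599, 700 and 475 CPM in Input and 961, 767 and 748 CPM in Positive (log2 0.48 ± 0.18, adjusted p = 0.0479), beside -0.71 ± 0.37 for the dynein-2 heavy chain. That call was lost with each single library left out other than Input 1223 (0.35 to 0.55), with RLE factors (0.47) and with library totals alone (0.33). Dynlt3 rose by 0.62 ± 0.17, a call lost without Positive 1227 (0.53) and with library totals alone (0.46), and with the replicate block 4 of the 22 were called higher. Kif5a, a neuronal kinesin, fell by 4.53 (SE 0.64).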

How the data were processed

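Total RNA from 6 mouse brain libraries (3 Input, 3 Positive) was sequenced with a directional kit, per the labels. The authors deposited 1 table with estimated counts and log2 normalized values. Per the file headers, the table was limited to genes whose raw value reached 50 in every library of Input, of Positive or of both. The build was mm10 and the tools include DESeq, per the submitters' processing notes; for aligner, counter and strand use, nothing was given in the sources used here. Rounded deposited estimated counts went into edgeR 4.0.16 under R 4.3.3, with TMM scaling (factors 0.94 to 1.082), filterByExpr with a minimum count of 10 (0 genes removed), the quasi-likelihood test with fraction as the only term, a prior count of 0.125, and Benjamini-Hochberg adjusted p below 0.05 over all 10989 genes. Levels are CPM at the TMM-adjusted library size, and SE is that of the log2 fold change. The biological coefficient of variation was 21.6%. The code was tested on simulated data. The deposited log2 values served only an alternative with limma 3.58.1, and DESeq2 1.42.0 was another.

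Input and Positive libraries of 1 number deviated together from their fraction means (r = 0.451 for 1222, 0.235 for 1223 and 0.296 for 1227, across genes). The alternative fit with the replicate block therefore paired libraries by number. The main fit, which gave the calls and adjusted p-values unless stated otherwise, left this pairing out. The labels leave unsaid what a number stands for, and p-values therefore reflect library-to-library spread. Members, roles and lists were chosen with earlier results of these data known. Named members are up to 3 per role with the highest mean count, those called higher or against their role's direction, Foxj1, and those whose call changes with a library; named list genes are the 2 with the highest mean count and those called against the list's direction, and others were chosen after their values were seen. Exon overlap, exon length and shared 31-base words were computed on GENCODE vM21, with promoters from RefSeq GRCm38.p6. Counts are over all 49 members, and the individual values of 2 members are not reported here.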

Additional observations from a re-analysis of the deposited data

How the results depend on the processing

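Counts of called members were compared across scaling, filter, tool, block and left-out libraries. Members called higher (1) became 0 with library totals alone, 3 with limma, 2 with the replicate block, and 0 to 2 with 1 library or both libraries of a number left out. For the transport, BBSome and transition zone members (1 higher) these were 0, 2, 2 and 0 to 2. Motile members called higher (0) became 1 with limma and 0 to 1 with libraries left out. The 28 members called lower became 12 when a count of 50 was required in every library, since only 27 members could then be tested, and the 16 motile members called lower became 1, since 18 of the 20 were not tested. The 12 transport, BBSome and transition zone members called lower became 6 to 13 with libraries left out (7 without both 1222 and 6 without both 1227 libraries). Over all genes, 2870 higher became 1741 to 2755 with libraries left out, lowest without both 1227 libraries, and 3227 lower became 2060 with 50 in every library. The replicate block, which pairs libraries by number, changed the call of no member other than Kif3b. Library totals alone shifted the median log2 fold change of all genes by -0.156, and the filter of 50 in every library by -0.141. Among the members reported by name, direction turned only where there was no call. Bbs4 was -0.017 with library totals and -0.001 with 50 in every library. Bbs7 was -0.100 and -0.085 there, and with libraries left out it ran from -0.127 (both 1223) to 0.316 (both 1222), below 0 also without Input 1227 (-0.066), Positive 1223 (-0.112) or both 1227 (-0.001). Both libraries numbered 1223 were the shallowest, and a count of 0 in Positive 1223 allows 0.665 CPM; this covers counting error only.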

Other observations

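The residual level of motile members in the sorted libraries differed from gene to gene between numbers. As a percent of the Input library of the same number, Foxj1 stood at 6.35, 1.21 and 4.04 (1222, 1223 and 1227) and Ccdc153 at 4.21, 0.59 and 3.51. Ak7 stood at 3.45, 9.54 and 3.99, and Spag6 at 10.1, 28.2 and 7.69. Of the 20 motile members, 9 had their highest and 9 their lowest percent in 1223, the number with the lowest totals. The summed motile level was 17.7%, 17.9% and 19.8% of Input. Most of that sum in each Positive library came from Spef1, Rsph3a, Rsph3b and Dnaaf2, so it does not describe the motile members called lower. In Positive 1223 the estimated counts behind the single-gene percentages were 5.0 for Foxj1, 1.0 for Ccdc153, 21.9 for Ak7 and 30.2 for Spag6.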
